A study of Drosophila melanogaster with 3 samples.

Results

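A set of 380 peaks of the chromatin protein Jarid2 had their summits between the starts of 2 protein-coding genes that are transcribed away from each other. They were taken from a list of 5464 peaks on the dm6 build of the Drosophila melanogaster genome that had been thresholded by irreproducible discovery rate (IDR). A peak was a member when its summit lay between a minus-strand start at the lower coordinate and a plus-strand start of another gene at the higher coordinate, each no more than 1000 bp from the summit. Any annotated isoform start could serve, and no signal value entered the choice. The members made up 6.95% of the list, lay between 352 gene pairs and involved 702 genes. Of these pairs, 26 held 2 summits and 1 held 3.

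The data were chromatin immunoprecipitation and sequencing (ChIP-seq) of whole embryos of both sexes, aged 0 to 24 h, in 1 group of 3 biological replicates. All replicates carried the same transgene, Jarid2 with green fluorescent protein (GFP) fused to its C terminus, in the strain Jarid2-GFP, and the precipitation used an antibody against GFP. Each replicate had a permissive list of 30000 peaks, ranked here by the authors' signal value, which is on its own scale in each list. The design had no treatment, no other genotype and no analysed sample without GFP, and whole embryos mix all tissues, so a peak does not say in which cells the protein was bound. Because the thresholded list was derived from these very replicates, finding a member in each of them adds no independent support. Read depth was unknown because no read counts were used.

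Jarid2 is a DNA-binding cofactor of Polycomb repressive complex 2 (PRC2), which methylates lysine residues of histone H3 and keeps developmental genes silent. Head-to-head gene pairs are frequent in the compact Drosophila genome, and they often join housekeeping genes that share a nucleosome-depleted interval between their starts. Such promoters are known for the DNA replication-related element (DRE), bound by DREF, for CGATA, part of the sites recognised by the insulator protein BEAF-32, and for the motif of M1BP, a zinc finger protein of housekeeping promoters. GAGAG is a core of the sites of GAGA factor, which is found at Polycomb response elements and at developmental promoters.

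The intervals between the flanking starts of 8 members show what lies at these summits. They were selected from 79 members with consecutive starts, no annotated exon and an interval of 60 to 300 bp. The choice took the strongest such members, the strongest with a DRE or an M1BP motif, and 1 with GAGAG. All are the plus strand of the Release 6 assembly, whose coordinates are those of dm6, and each starts 1 base after the minus-strand start and ends 1 base before the plus-strand start. Capitals mark the DRE TATCGATA, CGATA, the M1BP motif GGTCACACT, GAGAG and the E-box CAGCTG, each on either strand, so that TATCG is CGATA and CTCTC is GAGAG on the minus strand. The intervals are, in the order printed, chr3L:9457670-9457911, chr2L:8376798-8377034, chr3L:19612200-19612454, chr3L:5139396-5139618, chr3L:9426759-9427009, chr3R:8650797-8651083, chrX:9319224-9319358 and chr3L:9460800-9461049.
CG3437|CG3552: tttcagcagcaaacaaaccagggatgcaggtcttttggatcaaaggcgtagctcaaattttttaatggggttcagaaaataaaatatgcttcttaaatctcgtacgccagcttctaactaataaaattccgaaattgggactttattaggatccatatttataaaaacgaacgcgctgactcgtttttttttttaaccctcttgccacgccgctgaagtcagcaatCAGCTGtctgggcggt
CG13390|CG17294: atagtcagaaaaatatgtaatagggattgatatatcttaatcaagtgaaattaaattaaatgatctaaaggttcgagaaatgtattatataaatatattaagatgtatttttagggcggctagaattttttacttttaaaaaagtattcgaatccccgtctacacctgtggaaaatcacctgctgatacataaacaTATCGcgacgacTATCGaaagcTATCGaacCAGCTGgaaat
Lon|PIG-F: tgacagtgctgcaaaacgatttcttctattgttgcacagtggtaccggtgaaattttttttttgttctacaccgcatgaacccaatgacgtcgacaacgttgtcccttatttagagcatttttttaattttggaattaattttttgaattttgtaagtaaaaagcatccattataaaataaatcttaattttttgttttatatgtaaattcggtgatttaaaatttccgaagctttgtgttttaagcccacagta
Tcs5|CHMP2B: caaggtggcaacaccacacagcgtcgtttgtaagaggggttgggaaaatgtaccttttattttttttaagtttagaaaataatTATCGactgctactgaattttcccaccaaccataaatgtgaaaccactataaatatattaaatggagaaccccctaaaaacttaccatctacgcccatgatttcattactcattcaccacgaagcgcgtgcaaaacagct
Atat|Shc: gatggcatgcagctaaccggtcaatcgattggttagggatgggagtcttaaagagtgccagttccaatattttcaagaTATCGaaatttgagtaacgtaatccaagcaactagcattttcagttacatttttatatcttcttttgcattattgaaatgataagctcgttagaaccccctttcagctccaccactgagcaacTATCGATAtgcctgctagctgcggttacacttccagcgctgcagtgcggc
Mkk4|SLIRP2: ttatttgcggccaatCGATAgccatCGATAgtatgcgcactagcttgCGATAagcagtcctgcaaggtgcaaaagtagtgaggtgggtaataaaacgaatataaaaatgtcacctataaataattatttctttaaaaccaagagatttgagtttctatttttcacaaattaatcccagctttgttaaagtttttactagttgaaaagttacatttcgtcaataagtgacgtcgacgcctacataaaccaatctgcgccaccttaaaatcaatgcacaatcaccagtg
c12.1|c12.2: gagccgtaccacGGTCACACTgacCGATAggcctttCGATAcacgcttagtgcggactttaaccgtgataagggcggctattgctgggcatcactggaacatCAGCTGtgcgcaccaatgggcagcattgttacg
CG3434|CG44838: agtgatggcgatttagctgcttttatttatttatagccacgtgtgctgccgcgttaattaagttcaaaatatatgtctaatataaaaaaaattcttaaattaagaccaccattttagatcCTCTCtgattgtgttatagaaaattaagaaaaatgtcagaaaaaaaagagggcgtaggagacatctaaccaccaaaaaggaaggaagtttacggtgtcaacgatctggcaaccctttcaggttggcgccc

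No motif was common to all 8 intervals: CGATA stood in 5 of them and CAGCTG in 3. Their GC content lay between 30.6% for Lon|PIG-F and 54.8% for c12.1|c12.2. The interval of Lon, a mitochondrial protease, and PIG-F, an enzyme of GPI anchor synthesis, held none of the 5 motifs and the peak still ranked 318 of 5464. The interval of CG13390 and CG17294 held 3 copies of CGATA and 1 E-box, all in its last part, away from the summit at base 96. Atat, a tubulin acetyltransferase gene, and Shc, which encodes a signalling adaptor, flanked the strongest interval with a DRE. In c12.1|c12.2 the M1BP motif stood near the minus-strand start, with 2 copies of CGATA beside it, and in CG3434|CG44838 the only GAGAG match was 1 copy in reverse. CG3434|CG44838 (rank 1059) was not the strongest member between consecutive starts with GAGAG. Ns2|POSH (rank 830) and Mppe|pds5 (rank 844), on 2R, had GAGAG within 100 bp of the summit. No printed interval was on 2R.

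Members were found in all replicates but in unequal numbers. Among each replicate's own 5464 strongest peaks, 465, 322 and 507 in replicates 1, 2 and 3 met the rule, a mean of 431 ± 97.0 (SD, n = 3). The peaks upstream of 1 gene alone, with no facing start within reach, were steadier, at 853, 939 and 895 (896 ± 43.0). Replicate 2 was the lowest for the members and the highest for the upstream peaks. In the pooled list the upstream peaks numbered 873, the peaks downstream of their nearest start 2533, and the peaks over 1000 bp from any start 1678. The SDs measure the spread between biological replicates.

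The space between facing starts was small and densely occupied. It covered 1.61 Mb, or 1.20% of the bases of the 6 chromosomes used, against 10.3 Mb upstream of 1 gene alone. The members lay at 236 summits per Mb, against 84.9 upstream, 166 downstream and 15.7 beyond 1000 bp. In the replicates' own peaks the density was 268 ± 60.2 between facing starts and 87.1 ± 4.18 upstream, and it was higher between facing starts in 3 of 3 replicates (difference 180 ± 63.3 summits per Mb, two-sided exact sign-flip permutation test over replicates, p = 0.25). With 3 replicates this test cannot give a p below 0.25, so no comparison between replicates here can reach the usual threshold.

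Facing starts leave little room far from a start, so densities were also compared at like distances. Within 0 to 50 bp of the nearest start, the replicates had 352 ± 71.8 summits per Mb between facing starts and 220 ± 28.7 upstream of 1 gene. The gap was widest at 51 to 150 bp, with 438, 293 and 511 in replicates 1, 2 and 3 (414 ± 111) against 165, 173 and 167 upstream (168 ± 3.85). The pooled list gave 362 and 151 there, a ratio of 2.40. From 151 to 300 bp the densities overlapped, at 163 ± 57.8 between facing starts and 140 ± 13.1 upstream, higher between facing starts in 2 of 3 replicates (exact sign-flip permutation test, p = 0.75). The pooled list went the other way there, with 135 between facing starts and 144 upstream (ratio 0.938). From 301 to 1000 bp replicates 1, 2 and 3 had 48.5, 45 and 55.4 between facing starts and 44.1, 45 and 47.8 upstream, so replicate 2 showed no difference at this precision. These bins of distance were chosen after the data were seen.

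**Figure D1:**
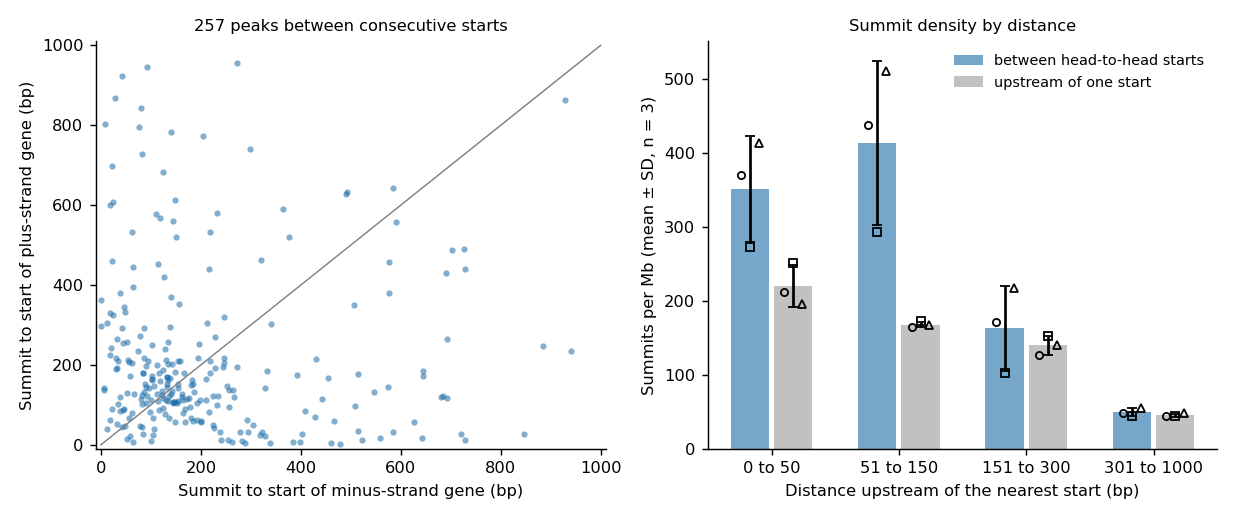
Left, each point is 1 of the 257 members between consecutive starts, with the distance in bp from its summit to the start of the minus-strand gene (x) and of the plus-strand gene (y), and the line marks equal distance. Right, bars give summits per Mb by distance upstream of the nearest start (mean ± SD, n = 3 replicates, open symbols for replicates 1 as circle, 2 as square and 3 as triangle), with facing starts in blue and peaks upstream of 1 gene in grey. The columns separate most at 51 to 150 bp, 414 against 168.

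Summits showed no preference for either strand. Their distances to the starts are bounded by the span between the starts, and were not compared with those of random positions. Over all members the flanking starts were a median of 381.5 bp apart (quartiles 265 and 741), the nearer start was 107 bp away and the farther 289.5 bp. The minus-strand start was nearer at 187 members and the plus-strand start at 193. The called peak region reached both starts at 128 members and 1 of them at 168. The median width of these regions was 450 bp, a width shared by many of the weaker members. These counts thus depend on the span and do not measure the extent of binding. Just inside the 1000 bp limit were app|CG32100 (farther start at 988 bp, rank 800), ERR|Atg18a (985 bp, rank 3818) and CG9921|Dsp1 (982 bp, rank 935). Just outside it were CG10337|Tep4 (1005 bp, rank 5022), CG31174|CG31431 (1009 bp, rank 819) and RpS7|Anp (1018 bp, rank 3051).

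The members were of 2 kinds. At 257 the flanking starts were consecutive, and only 6 of these summits lay in an annotated 5′ UTR. At the other 123 a further coding start lay between the flanking starts, 95 of the summits lay in a 5′ UTR, and 83 were downstream of another start, 63 of them by no more than 100 bp. Where consecutive starts were no more than 500 bp apart (183 members), the summit was a median of 84 bp from the nearer start, 185 bp from the farther and 35 bp from the midpoint, and 96 (52.5%) lay in the third of the interval around the midpoint. In the 74 wider intervals the summit was a median of 210.5 bp from the midpoint, with 25.7% in the third around it, and over all 257 the share was 44.7%. The replicates' own summits lay a median of 19, 13 and 19 bp from those of the members with consecutive starts in replicates 1, 2 and 3. In their own peaks between consecutive starts, the nearer start was at 90.5 ± 6.06 bp (mean of medians ± SD, n = 3), and 38.8% ± 0.76 of the summits lay in the third around the midpoint.

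In strength the members were ordinary peaks of the list. Their median rank was 2694, with a median signal of 300, against rank 2881 (signal 286) for peaks upstream of 1 gene, 2011 downstream and 3582 beyond 1000 bp. Among the 546 strongest peaks were 27 members (7.11% of members), against 5.38% of upstream and 17% of downstream peaks. By kind, it was 5.45% of members with consecutive starts and 10.6% of those with other starts between, with median ranks of 2803 and 2402. Members with consecutive starts were thus close to upstream peaks in strength. In the replicates' own lists the median rank stood at 49.4% ± 3.99 of the list for members and 52.2% ± 0.765 for upstream peaks. The difference was 0.512, -7.23 and -1.83 percentage points in replicates 1, 2 and 3 (mean -2.85 ± 3.97, exact sign-flip permutation test, p = 0.5), so its sign differed between replicates.

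The strongest member lay between Ugalt, a UDP-galactose transporter gene, and eIF2Bbeta, which encodes a subunit of a translation initiation factor (X, 2703692 to 2704076). Its signal was 2664 in the pooled list and its rank 13, with ranks 14, 31 and 1 in replicates 1, 2 and 3. It was the only member in the 20 strongest peaks of the whole list. The ratio of its highest to its lowest rank, 31, was the largest among members with a summit in every replicate. That ratio rests on rank 1 in replicate 3, and each replicate placed the peak among its 31 strongest. The second member lay between CG3437 and CG3552 and ranked 67, with ranks 100 and 12 in replicates 1 and 3 and no summit in replicate 2. Chro|Ssl1 ranked 104, with ranks 157, 137 and 35. Its summit lay 96 bp downstream of a further coding start, while those of Ugalt|eIF2Bbeta and CG3437|CG3552 lay between consecutive starts. Chro encodes the chromodomain protein Chromator and Ssl1 a subunit of the transcription factor TFIIH. All 3 ranked higher in replicate 3 than in the others.

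The next members in strength joined genes of varied function. PNPase, a mitochondrial polynucleotide phosphorylase gene, faced Gprk2, which encodes a G protein-coupled receptor kinase. This peak ranked 125, with ranks 171, 181 and 40 in replicates 1, 2 and 3. Drsl6, of the drosomycin-like family, faced kst, the heavy beta-spectrin gene (rank 151; 147, 148 and 183). The mitochondrial ribosomal protein genes mRpS23 and mRpL41 faced CenG1A (rank 167; 231, 243 and 81) and CG8079 (rank 179; 178, 373 and 68). In each of these pairs the replicates placed the peak among their 373 strongest. At PNPase|Gprk2 and Drsl6|kst the summit lay 72 and 52 bp downstream of a further coding start. Those of mRpS23|CenG1A and mRpL41|CG8079 lay between consecutive starts.

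Pdrg1|Pal1 ranked 213 and CG32066|CG8003 226, followed by CG5611|Mtl, with the Rac-like GTPase gene Mtl (250), CG11309|CG7632 (253) and CG13390|CG17294 (266). The non-muscle myosin gene zip and uzip ranked 310 (336, 282 and 355 in replicates 1, 2 and 3), Lon|PIG-F 318 (315, 555 and 171) and Tcs5|CHMP2B, with an ESCRT-III subunit gene, 350 (400, 561 and 153). RpS27|Nup37 ranked 362, Mical|CG3909 366, Ripalpha|RpL7 415, Hrd3|PTPMT1 444 and CG8372|CG8360 464. Summits lay downstream of a further coding start at CG32066|CG8003 (by 64 bp), CG11309|CG7632 (82), zip|uzip (107), RpS27|Nup37 (2), Ripalpha|RpL7 (31) and CG8372|CG8360 (63). At Mical|CG3909, also with a further start between, the summit was at a start. The summits of Pdrg1|Pal1, CG5611|Mtl, CG13390|CG17294, Lon|PIG-F, Tcs5|CHMP2B and Hrd3|PTPMT1 lay between consecutive starts. Of the 20 strongest members, CG3437|CG3552 was the only one without a summit in a replicate. The weakest were CG6962|CG31368 (5410), the second summit between the profilin gene chic and the helicase gene eIF4A (5429), and Sema1b|HPS4 (5449), with ranks 8432, 3950 and 8140 in replicates 1, 2 and 3 for the last.

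Among members with a summit in every permissive list, the next largest ratios of replicate ranks were at 3 others. At the second summit of CG17896|CG17778 (rank 4477) the ranks were 10599, 1011 and 702 in replicates 1, 2 and 3, at Fur1|Vps33B 13875, 1224 and 1338, and at the second summit of app|CG32100 26058, 3061 and 2835. All 3 were weak in replicate 1. At CG17896|CG17778 the summits of replicates 2 and 3 were also those matched to the first summit of the pair (rank 974), so they were counted for both. A pair with 3 summits was Fer1HCH|Fer2LCH, the genes of the ferritin heavy and light chains, with ranks 1190, 1635 and 3273 in the pooled list. Its strongest summit ranked 1730, 1643 and 723 in replicates 1, 2 and 3.

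Within 200 bp of 246 members, each replicate had a summit among its 5464 strongest (64.7% of members, exact 95% interval 59.7 to 69.5%), against 66.6% of peaks upstream of 1 gene and 68.2% of the whole list. Intervals here are Clopper-Pearson and cover counting error only. A further 100 members were held by 2 replicates and 34 by 1. The members' share was thus near that of the list. A replicate summit could be matched to more than 1 peak, so a weak summit could be held through a stronger neighbour. At the second summit of RpL32|CG7943 (rank 3750), all 3 replicates' matched summits were also those of the first (rank 805). Among the 2732 strongest peaks of the list, where most peaks were held by all, the shares were 89.6% of 193 members, 95.6% of upstream, 97.9% of downstream and 97.6% of peaks beyond 1000 bp.

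Replicate 2 lacked many of these sites. No summit among its 30000 lay within 200 bp of 39 members (10.3%), against 2.63% of upstream peaks, 1.18% of downstream peaks, 0.596% of those beyond 1000 bp and 1.87% of the whole list. Replicate 1 lacked 4 members and replicate 3 lacked 2. Of the 39, 30 were among the 5464 strongest peaks of both other replicates, 16 were among the 2732 strongest of both, and 34 had no replicate 2 summit even within 1000 bp. At most of these sites, then, no shifted summit was found either. The 4 strongest were CG3437|CG3552, CG13018|CG13016 (ranks 729 and 443 in replicates 1 and 3), Ns2|POSH, with a GTPase and a scaffold protein gene (795 and 582), and Cp190|CG4338 (1639 and 507), with the insulator protein gene Cp190.

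The same was seen without the thresholded list. Of the sites between facing starts that were among the strongest peaks of replicates 1 and 3, 87 of 362 (24.0%) had no summit in replicate 2, against 6.17% of 681 sites upstream of 1 gene, 3.16% of downstream sites and 2.45% of those beyond 1000 bp. Of the sites strong in the other pairs of replicates, 4 of 269 (1.49%) were lacking in replicate 1 and 2 of 268 (0.746%) in replicate 3. The members absent from replicate 2 had a lower median GC content, 32.3% against 37.8% in the other members, and a shorter span, 301 against 391 bp. Below 35% GC, 25 of 148 members (16.9%) and 13 of 301 upstream peaks (4.32%) were absent, and from 45% GC 4 of 75 members (5.33%) and 5 of 273 upstream peaks (1.83%). In each of the 4 ranges of GC content compared, absence was more frequent in members than in upstream peaks. The part of GC content within a range was not tested.

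**Figure D2:**
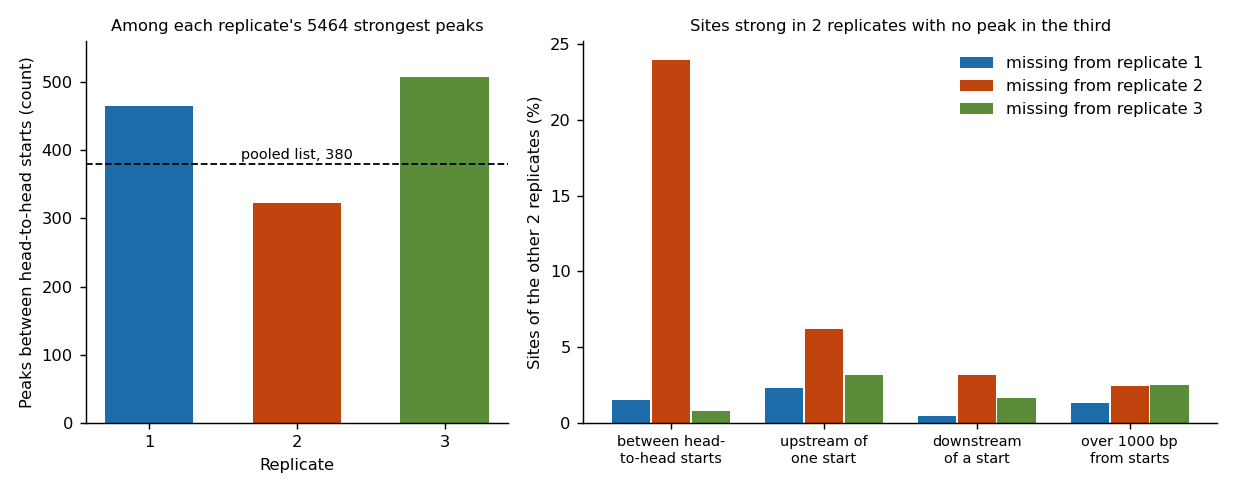
Left, bars count the peaks between head-to-head starts among the 5464 strongest peaks of each replicate, 465, 322 and 507, and the dashed line marks the 380 of the pooled list. Right, bars give, for each class of site, the percentage of sites strong in 2 replicates that had no summit within 200 bp in the permissive list of the remaining one. The bar for sites between head-to-head starts and replicate 2 reaches 24.0%, and the others stay at or below 6.17%.

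Among all head-to-head coding pairs, 10.6% had a member. The annotation gave 3317 pairs whose closest facing starts were no more than 2000 bp apart, with 6056 of 13945 coding genes (43.4%), and 352 had a summit between. Of these, 200 had a summit between the starts only and 152 also had 1 within 1000 bp downstream of a start. Another 608 pairs (18.3%) had summits downstream only, and 2357 (71.1%) had neither. Of the 2965 pairs without a thresholded summit, 395 (13.3%) had 1 in the permissive pooled list. By any summit within 1000 bp of a start, genes of such pairs were at 29.6% and all coding genes at 25.5%.

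For comparison, 7.28% of coding genes in no such pair had an upstream summit. In the replicates, 13.2%, 8.92% and 14.2% of pairs had a summit between, in replicates 1, 2 and 3 (12.1% ± 2.79), against 7.26%, 7.85% and 7.48% of the other genes (7.53% ± 0.295). The share was higher for pairs in 3 of 3 replicates, by 4.57 ± 3.05 percentage points (exact sign-flip permutation test, p = 0.25), but by only 1.08 points in replicate 2. A pair has 2 starts and a gene in no pair has its own, so these shares do not count equal lengths of DNA.

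The share of pairs with a member varied with their spacing. Of pairs 201 to 500 bp apart, 184 of 1129 (16.3%) had a member, with 21.0%, 12.7% and 23.7% in replicates 1, 2 and 3 (19.1% ± 5.77). Closer pairs, up to 200 bp, were at 10.6% (79 of 744; 12.3% ± 2.41 in the replicates) and pairs 501 to 1000 bp apart at 12% (78 of 649; 12.6% ± 1.33). Beyond 1000 bp only 11 of 795 (1.38%) had 1, where the rule leaves less room because both starts must lie within reach of the summit. Wider intervals up to that limit offer more DNA, and per Mb open to the rule the pairs up to 200 bp apart held 364 members, close to the 395 of pairs 201 to 500 bp apart, against 170 at 501 to 1000 bp and 36.5 beyond. The 201 to 500 bp group was the highest in each replicate's own peaks, and replicate 2 fell below the others by more there than in the neighbouring groups. By chromosome, 13.2% of pairs on 3L, 11.3% on 3R, 10.5% on 2R, 9.33% on 2L, 8.30% on X and 0 of 16 on chromosome 4 had a member.

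**Figure D3:**
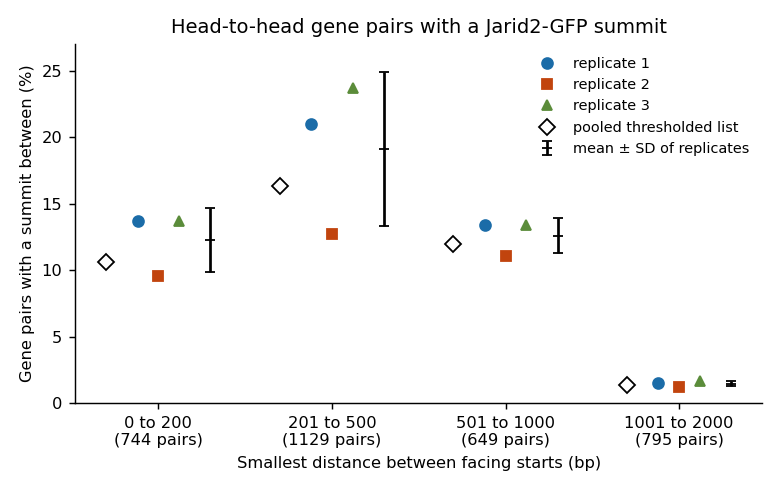
Percentage of head-to-head gene pairs with a summit between them (y) by the smallest distance between facing starts in bp (x), for the pooled list (open diamonds), each replicate (coloured symbols) and the replicates' mean ± SD (bars). Pairs 201 to 500 bp apart are highest in every replicate, at 12.7% to 23.7%, and pairs over 1000 bp apart stay near 1.47%.

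Genes of the cytoplasmic ribosome had the highest share of the 21 lists. Of 71 head-to-head pairs with such a gene, 32 (45.1%) had a member, with 50.7%, 42.3% and 50.7% in replicates 1, 2 and 3 (47.9% ± 4.88), against the 10.6% of all pairs. Their 35 members had a median rank of 1467, against 2694 for all members. Of these 35, 32 were held by all 3 replicates and 0 were absent from replicate 2. The list was defined by a pattern in the symbol and left out sta, a ribosomal protein gene under another symbol. The member of sta with inc (rank 1331) was absent from replicate 2. The listed genes also had summits elsewhere. Of 92, 69 (75%) had a summit within 1000 bp of a start, against 25.5% of all coding genes. A further 23 pairs had summits downstream only. RpS27|Nup37, with a nuclear pore gene, ranked 398, 539 and 205 in replicates 1, 2 and 3. Ripalpha|RpL7 ranked 311, 595 and 270, and Nelf-E|RpL14, whose Nelf-E encodes a subunit of the pausing factor NELF, 445, 789 and 494 (560 in the pooled list). At the first 2 of these the summit also lay in a 5′ UTR, 2 and 31 bp downstream of a further start. The lists were chosen with earlier results known, so their counts are descriptions.

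Other machinery of protein synthesis was closer to all pairs. Mitochondrial ribosomal protein genes had members at 11 of 62 pairs (17.7%; 18.8% ± 5.18 in the replicates), aminoacyl-tRNA synthetase genes at 6 of 30 (20%; 16.7% ± 5.77) and translation factor genes at 6 of 38 (15.8%; 17.5% ± 4.02). Their strongest members included Cip4|mRpS6 (rank 557), SerRS|CG17260 (2129), Plp|GlyRS (2158), Hem|IleRS (2346), eIF4EHP|CG18428 (502) and RpL28|eIF1 (1202). RNA polymerase and basal transcription genes had members at 9 of 62 pairs (14.5%), with both summits of CG4297|MED15 (1280 and 1314) and 140up|Polr2B (1634) strongest. The replicate means of these 4 lists, 16.1% to 18.8%, lay above the 12.1% of all pairs. In replicate 3, however, aminoacyl-tRNA synthetase pairs were at 13.3%, below the 14.2% of all pairs. The other lists were above all pairs in each replicate.

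The other lists of cell maintenance and signalling lay on both sides of the 10.6% of all pairs. Splicing factor genes had a member at 1 of 34 pairs (2.94%; SF2|pad, rank 3310), with 3, 0 and 3 pairs in replicates 1, 2 and 3 (5.88% ± 5.09). Proteasome genes had 1 of 31 (3.23%; Rpn13|CtsL1, 2483), with 3, 2 and 4 pairs in the replicates (9.68% ± 3.23). Vesicle traffic genes had 5 of 70 (7.14%), with 8, 5 and 14 pairs in the replicates (12.9% ± 6.55), so the low pooled share was not seen in each replicate. Their strongest members were Fur1|Vps33B, Rab18|RpL35 (4166) and alphaCOP|CG13919 (4872). Oxidative phosphorylation genes were at the share of all pairs, with 6 of 57 (10.5%; ATPsynF|CG3548 at 2546, glo|COX5A at 3007 and TppII|ND-MWFE at 3037).

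DNA replication and cell cycle genes had a member at 5 of 36 pairs (13.9%; Fsn|Dp at 1974, Art1|Mcm5 at 4298 and RPA1|Mcm2 at 4370). Signalling genes had 3 of 23 (13%; Socs36E|CG17681 at 2954, hpo|CG15120 at 3111 and yki|Gpat4 at 3814). Both were near the 10.6% of all pairs. Chaperone genes had 4 of 20, led by the Hsp90 gene Hsp83 with CG14965 (711), Hsc70-5|CG8531 (1745) and Hsp67Bc|CG4456 (3547), with 15% ± 5 in the replicates. Mitochondrial import genes had 1 of only 5 (CG33199|Tom7, 2517). Autophagy genes had 5 of 15 (33.3%), including Xe7|Atg17 (2319), CG12093|Atg2 (2802) and Atg8a|BTBD9 (3782), and the share ranged from 20% in replicate 2 to 40% in replicate 3.

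Tissue-restricted families gave low counts, against a share of 10.6% of all pairs. Chemoreceptor and odorant-binding genes had members at 2 of 53 pairs, CG11594|Gr64a (rank 4290) and CG12402|Or88a (4864), with 842 and 632 bp to the farther start. Cuticular protein genes had 0 of 22 in the pooled list and in each replicate. Few genes of these lists had any summit within 1000 bp of a start, 2.61% and 1.67% against 25.5% of all coding genes. The low shares were thus not limited to facing starts. Together the 21 lists named a gene of 106 of the 380 members, and 225 of the 702 genes (32.1%) had only a CG symbol.

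Few classical targets of Polycomb silencing had a facing neighbour. Of 97 Polycomb target transcription factor genes, only 5 (5.15%) were in a head-to-head pair, against 43.4% of coding genes, and 0 of their 5 pairs (mod(mdg4)|tin, btn|Efa6, myo|ey, PPP1R15|Sox14 and CG46312|exd) had a member. Yet 78 of the 97 (80.4%) had a summit within 1000 bp of a start, against 25.5% of all coding genes. Their summits lay at other positions. Of 50 signalling genes, 20 (40%) were in a head-to-head pair, close to the share of all coding genes. A summit within 1000 bp of a start was found at 38 (76%), against the same 25.5%. Both lists were chosen with earlier results of these data known, so their shares are descriptions.

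Of the genes for PRC2 and its cofactors, E(z), the histone methyltransferase, had a member with Cnep1r2 (rank 1272; 1305, 1875 and 935 in replicates 1, 2 and 3). This summit lay 91 bp downstream of a further coding start. The closest facing starts of E(z) and Cnep1r2 were 16 bp apart, and the summit was not between them. The other pairs of this list, E(z)|CG18628, Hsf|Pcl, Scm|Dh44, Uch-L5|Jarid2, Su(z)12|Pfdn6, Su(z)12|Grasp65, CG31344|Caf1-55 and zuc|escl, had none, so the count was 1 of 9 (11.1%, against 10.6% of all pairs), with 1, 1 and 2 pairs in replicates 1, 2 and 3. The promoter of Jarid2 itself, 73 bp from that of Uch-L5, thus held no thresholded summit between the starts. For PRC1, PhoRC and PR-DUB the count was 0 of 11 (crm|kirre, Pc|Rab26, Scm|Dh44, Nmdmc|Kdm2, Cpsf160|Asx, Sfmbt|CG5439, Sfmbt|CG43925, phol|CG3552, caly|CG42837, caly|CG44242 and caly|Lipt1), with 1, 0 and 1 pairs in replicates 1, 2 and 3. These small counts got no test. The strong CG3437|CG3552 member was not at the start that CG3552 shares with phol (phol start 3L, 9456281, CG3552 start 9456318) but between CG3437 (9457669) and another CG3552 start (9457912).

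Among trithorax group genes 2 of 17 pairs had a member (11.8%; 13.7% ± 3.40 in the replicates), near the 10.6% of all pairs. These were brm|Arl1, with the ATPase gene of the Brahma remodelling complex (rank 910; 893, 1307 and 483 in replicates 1, 2 and 3), and Bap60|CG12096 (4985; 4636, 8009 and 4385). The pairs mor|Hel89B, skd|Pdss2, fs(1)h|mys, ash1|Taf6, Trl|Mgat4a, trr|mRpL16, Bap55|Lhr, Trap1|Bap170, fh|Bap111, Rbbp5|eRF1, mRpL44|Snr1, puf|ash2, CG13760|wds, e(y)3|Rcd-1 and osa|Pxt had none. Genes of insulator and promoter architecture proteins had 3 of 13, namely Chro|Ssl1, Cp190|CG4338 and CG12974|pzg (2993; 2403, 3783 and 2594). The share of that list ran from 15.4% in replicate 2 to 38.5% in replicate 3.

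**Figure D4:**
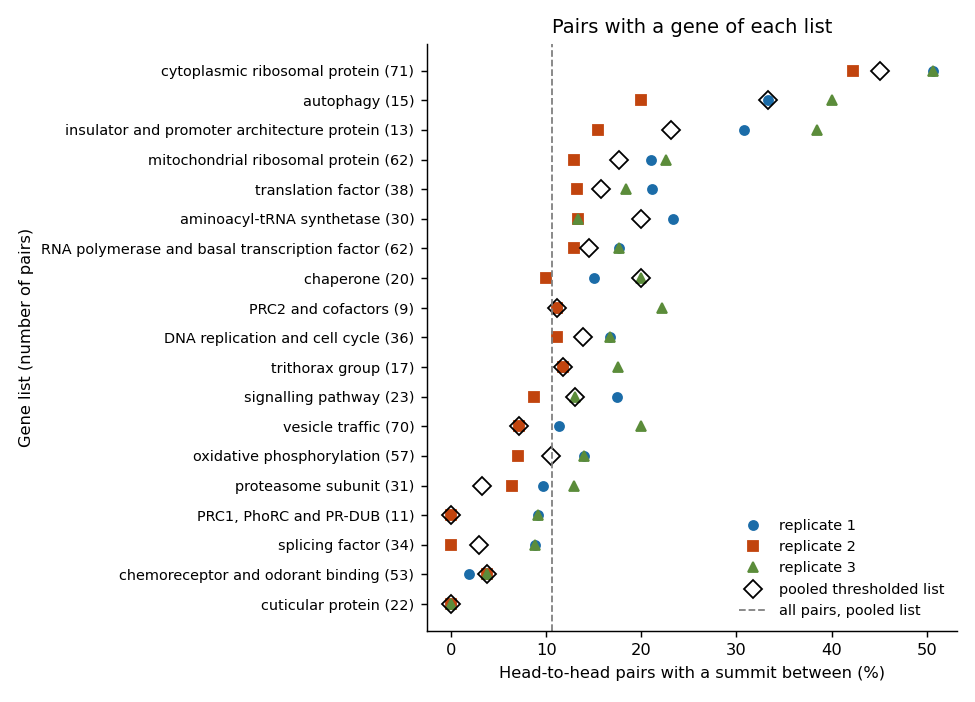
Percentage of head-to-head pairs with a summit between them (x) for each gene list with at least 9 pairs (y, with the number of pairs), for replicates 1, 2 and 3 and the pooled list (open diamonds). The dashed line marks the 10.6% of all pairs, and the cytoplasmic ribosomal protein pairs, at 42.3% to 50.7%, lie to the right of every other list in each replicate.

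Motifs of housekeeping promoters were more frequent at members than at peaks upstream of 1 gene. In windows of 201 bp centred on the summit, read on both strands, the DRE stood at 31 members (8.16%), against 2.29% of peaks upstream of 1 gene, 1.22% downstream, 0.119% beyond 1000 bp and 1.54% of the whole list. In the replicates' own peaks the shares were 9.46%, 7.76% and 8.48% for members (8.57% ± 0.853) and 2.58%, 1.92% and 1.56% for upstream peaks (2.02% ± 0.515), higher in members in 3 of 3 replicates (exact sign-flip permutation test, p = 0.25). CGATA, which every DRE contains, stood at 34.7% of members and 27.8% of upstream peaks (38.2% ± 2.19 and 27.1% ± 1.29 in the replicates). The M1BP motif was at 3.42% and 1.37% (3.61% ± 0.171 and 1.43% ± 0.405). Between consecutive starts it was at 1.56% of members, close to the upstream share. The higher share came from members with other starts between, at 7.32%.

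The motif of GAGA factor went the other way. GAGAG was at 20.5% of members and 34.7% of upstream peaks, and at 20.4%, 22.4% and 17.4% against 35.3%, 40.7% and 32.1% in replicates 1, 2 and 3 (20% ± 2.52 and 36.0% ± 4.35). It was lower in members in 3 of 3 replicates (exact sign-flip permutation test, p = 0.25). The dinucleotide repeat GTGTGT of Combgap sites was also lower, at 12.9% and 16.0%. TATAAA was at 36.6% and 29.2%, and CAGCTG, an E-box of core promoters, at 16.1% and 10.8%. The core GCCAT of Pho, the DNA-binding subunit of PhoRC, was at 22.9% and 29.9%, with equal shares of 28.6% in replicate 3. Smaller shares were found for GGGCGG (4.21% and 5.73%), CACGTG (3.42% and 2.52%), the CRE (1.05% and 0.115%) and the Zelda motif CAGGTAG (0.789% and 0.573%), and the initiator TCAGTT was at 13.4% and 15.7%.

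Base composition also differed between members and upstream peaks. The median GC content of the windows was 37.3% at members, 39.3% at upstream peaks, 47.3% at downstream peaks, 37.8% at peaks beyond 1000 bp and 43.3% over the list. Peaks beyond 1000 bp were thus close to members in GC content, while the DRE was at 0.119% of them and GAGAG at 30%. In the replicates it was 37.5% ± 1.00 at members and 40% ± 1.5 at upstream peaks (difference -2.49 percentage points, exact sign-flip permutation test, p = 0.25). The part of GC content in the difference between members and upstream peaks was not tested.

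At the midpoint of head-to-head pairs, the DRE and CGATA were about as frequent without a summit as with it. Over whole intervals CGATA was less frequent at pairs with a summit. In 201 bp windows at the midpoint of the closest facing starts, the DRE was at 5.97% of 352 pairs with a summit and 6.78% of 2965 without, CGATA at 36.4% and 36.6%, and the M1BP motif at 1.70% and 3.58%. GAGAG was at 16.8% and 14.6%, CAGCTG at 12.2% and 11.8%, and TATAAA at 43.2% and 36.6%. The midpoint windows had a median GC content of 32.3% with a summit and 34.8% without. Over whole intervals of 60 to 300 bp, the DRE was at 13.5% of 148 pairs with a summit and 16.0% of 892 without, CGATA at 48.0% and 57.2%, the M1BP motif at 2.70% and 5.72%, GAGAG at 18.2% and 15.2% and CAGCTG at 25% and 15.2%. Those intervals were longer with a summit, a median of 231.5 against 190.5 bp, and a longer interval holds more matches. Whether length accounts for the share of CAGCTG was not tested.

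Among the members, those with the housekeeping motifs had the higher rank numbers, that is, weaker peaks. The median rank was 3297 for the 31 with a DRE and 2680 for the 349 without, 3719 for the 13 with the M1BP motif and 2688 for the rest, and 2970 for the 132 with CGATA and 2617 for the rest. Members with TCAGTT had a median rank of 1991 and those without it 2819. The DRE was more frequent between consecutive starts (10.1% of 257) than with other starts between (4.07% of 123), and the M1BP motif was less frequent there (1.56% and 7.32%). Absence from replicate 2 was found at 3 of the 31 members with a DRE. A match to a motif is a description of these letters and not a site.

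**Figure D5:**
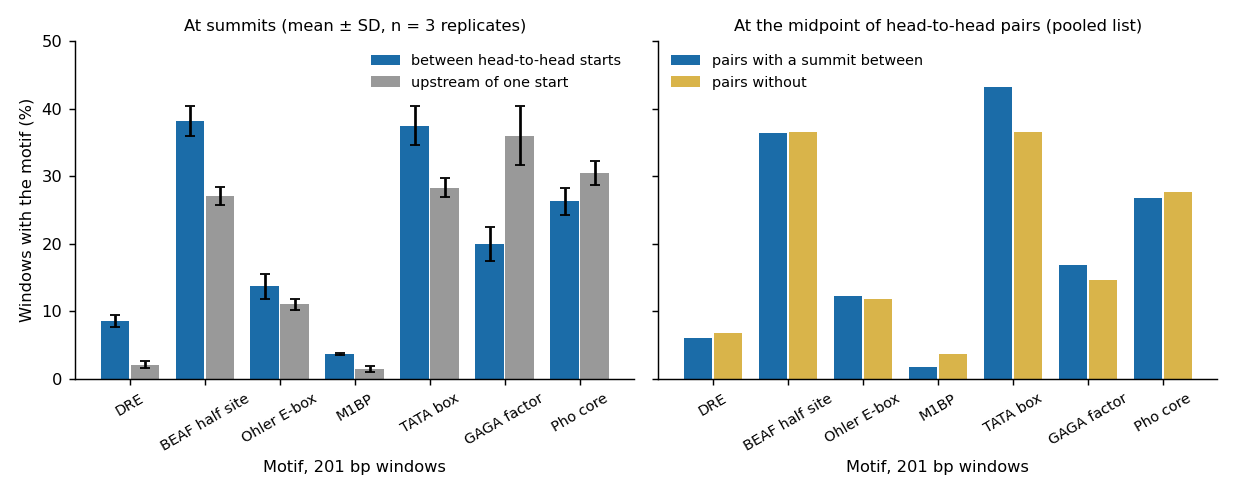
Left, percentage of 201 bp windows at summits that hold each motif, for peaks between head-to-head starts (blue) and upstream of 1 gene (grey), as mean ± SD of 3 replicates. Right, the same at the midpoint of head-to-head pairs with a summit between (blue) and without (yellow) in the pooled list. The DRE differs on the left, 8.57% against 2.02%, and not in the same direction on the right, 5.97% against 6.78%.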

How the data were processed

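ChIP-seq peak lists of 3 biological replicates of Jarid2-GFP embryos (0 to 24 h; chromatin sonicated to 200 to 800 bp according to the labels) were used. The authors deposited, for dm6, a permissive list of 30000 peaks per replicate, another for all replicates pooled, and the IDR-thresholded list, whose 5464 peaks were the strongest of the pooled list. The deposited lists give a signal value and a −log10 q-value per peak, and only the signal was used for ranks, within a list. In the thresholded list 70.8% of peaks shared the highest −log10 q-value, so the authors' q-values were not used to rank. The dm3 lists were not used. Which aligner and caller produced them is not given in the sources used here. Depth was unknown, and 0 columns of other samples were present.

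A summit was the peak start plus the offset, and 3 peaks had an offset at or past their end. Starts were 19607 positions of 13945 coding genes on 6 chromosomes (Ensembl release 115, BDGP6.54). Peaks matched when summits lay within 200 bp. Members' values were compared over replicates by two-sided exact sign-flip permutation tests, and peaks and genes got no test. Motifs (13) were searched in 201 bp windows, and 21 gene lists, defined by symbol or by a pattern in the name, were counted. The code, in Python 3.11.15 with numpy 2.4.6, pandas 2.3.3, scipy 1.17.1 and matplotlib 3.10.9, was tested on simulated data.

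The members and lists were chosen with earlier results of these data known. Named pairs were the 20 strongest and 3 weakest members, up to 3 strongest per list, pairs with 3 summits, the 4 with the largest ratio of replicate ranks, the 4 strongest absent from a replicate, those at the 1000 bp limit, all pairs of PRC1, PRC2 and trithorax genes, and the printed intervals. The pairs of Polycomb target genes were named after their count was seen. Alternatives were other distances, start definitions, list sizes, match distances, motif windows and leaving out each replicate.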

Additional observations from a re-analysis of the deposited data

How the results depend on the processing

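The count of 380 members was 169 with a limit of 250 bp, 224 with only the outermost start of each gene and 193 among the 2732 strongest peaks. It was 259 with a limit of 500 bp, 257 with consecutive starts only, 352 without summits that had a stronger one within 300 bp and 379 with summits read 1 base lower, the last an alternative added after the data were seen. The share held by all 3 replicates, 64.74%, was 56.32% with a match distance of 100 bp, 68.42% with 400 bp, 88.16% with all permissive peaks and 33.16% with 2732 peaks per replicate. Held by both others, it was 69.47% without replicate 1, 80.26% without replicate 2 and 70.79% without replicate 3, also added later. Without a replicate, the mean count in the replicates' own lists ran from 393.5 to 486, the rank difference from -4.53 to -0.6589 percentage points, and the difference of pair shares from 3.509 to 6.316. With 2732 peaks per replicate these differences were -0.5673 and 2.347. Motif shares followed the window length: of 26 shares in 101 and 401 bp windows, 19 moved beyond the counting interval. No paired analysis was possible because the series had 1 group, so replicate numbers could pair no samples across groups. The differences between classes of peaks were taken within each replicate. Small counts per list, 3 replicates and unknown depth limit the precision.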
